A study of Mus musculus with 12 samples.

Results

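Spinal motor neurons were followed through 10 genes that mark what they are and how they signal: Chat, Slc5a7, Mnx1, Isl1, Isl2, Lhx3, Lhx4, Ret, Chodl and Mmp9. The rows were taken by gene name from the 38924 genes in the deposited tables, and all 10 were found. RNA from spinal cord was sequenced from 12 mice aged 1 week on a B6J;CAST background. The 6 wt mice, labelled female (mice 1, 2 and 14) and male (mice 6, 9 and 19), had no mutant allele named in their labels. The 6 P278KY mice, labelled female (mice 4, 7 and 10) and male (mice 3, 5 and 13), carried the P278KY change in Gars, the gene for glycyl-tRNA synthetase, over a + allele according to the series title, which places them before disease onset. No agent was given to any group in the labels. Mutations in this gene cause an inherited motor neuropathy, so the comparison asks how cord transcripts differ before signs appear. Motor neurons are a small share of a whole cord, and in such bulk RNA fewer cells of a type and less RNA per cell cannot be told apart.

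As background, motor neurons release acetylcholine onto muscle. Chat makes the transmitter, and Slc5a7 is the transporter that takes choline back into the terminal. Homeodomain factors give the cells their identity: Isl1 and Lhx3 bind together with the adaptor Ldb1 and switch on motor neuron genes in the embryo, Isl2 acts beside Isl1, Lhx4 is the close relative of Lhx3, and Mnx1 holds interneuron programmes off. Ret is the signalling receptor for GDNF family survival factors. Chodl and Mmp9 mark fast motor neurons in the mature cord. Several of the genes are also used elsewhere: Isl1, Isl2 and Ret in sensory ganglion neurons, Lhx3 and Lhx4 in V2 interneurons, and Mmp9 in osteoclasts and neutrophils.

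The libraries held 27713981 to 43219891 expected counts and 22001 to 23173 detected genes. The sex labels of 2 libraries went against their RNA: the library labelled female wt 14 had 0.533 CPM (counts scaled to library size and composition) of Xist and 45.1 CPM of Ddx3y, and the library labelled male wt 19 had 860 and 0.0233 CPM. The other 5 libraries labelled female had at least 762 CPM of Xist and at most 0.0629 CPM of Ddx3y, and the other 5 labelled male at most 1.2 and at least 75.0 CPM. Gars itself averaged 124.5 ± 6.74 CPM over wt and 131 ± 7.36 CPM over P278KY libraries (SD, n = 6 each), a level that does not check the labels, since the allele changes the coded protein. The tissue label was checked with markers: 10 of 10 spinal cord cell genes were detected, summing to 13674 to 23253 CPM in wt and 13864 to 22923 CPM in P278KY, while of the forebrain genes Emx1 was at most 0.0704 CPM in any library, Tbr1 was 0.125 to 0.511 CPM and Neurod6 10.2 to 15.3 CPM. The library labelled female wt 14 stood apart. Its sensory ganglion genes summed to 318 CPM, against 12.6 to 23.3 CPM in the other 11, and results that rest on it are given with and without it. It is called wt mouse 14 from here on, and the sexes below are those of the labels.

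Per transcript length, in TPM (transcript abundance corrected for length and depth), the genes covered a wide range of levels. In the 6 wt libraries Chodl had 40.0 ± 6.12 TPM, Ret 33.7 ± 8.12 TPM, Slc5a7 25.2 ± 5.98 TPM, Mmp9 14.6 ± 6.47 TPM and Chat 8.01 ± 1.85 TPM (SD, n = 6). The homeodomain genes lay lower, at 4.74 ± 6.74 TPM for Isl2, 4.09 ± 2.43 TPM for Isl1, 2.19 ± 0.295 TPM for Lhx4, 1.51 ± 0.426 TPM for Lhx3 and 1.5 ± 0.241 TPM for Mnx1. Without wt mouse 14, Isl2 had 1.99 ± 0.434 TPM and Isl1 3.13 ± 0.680 TPM (n = 5), and Isl2 moved below Lhx4. Over those 5 libraries, neighbours in the order overlapped in range except Slc5a7 above Mmp9 and Chat above Isl1. In the 6 P278KY libraries the order was Chodl 39.1, Ret 28.0, Slc5a7 27.7, Mmp9 15.2, Chat 6.43, Isl1 3.04, Lhx4 1.73, Isl2 1.34, Mnx1 1.17 and Lhx3 1.14 TPM. There the ranges did not overlap between Chodl and Ret, Mmp9 and Chat, Chat and Isl1, or Isl1 and Lhx4. The expected count of Lhx3 was fractional in 5 libraries, whereas the other 9 genes had whole counts in all 12. The antisense gene Gm27196 overlaps Lhx3 over 1588 bases, with a mean of 6.49 expected counts, and its part in the Lhx3 counts was not tested.

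**Figure D1:**
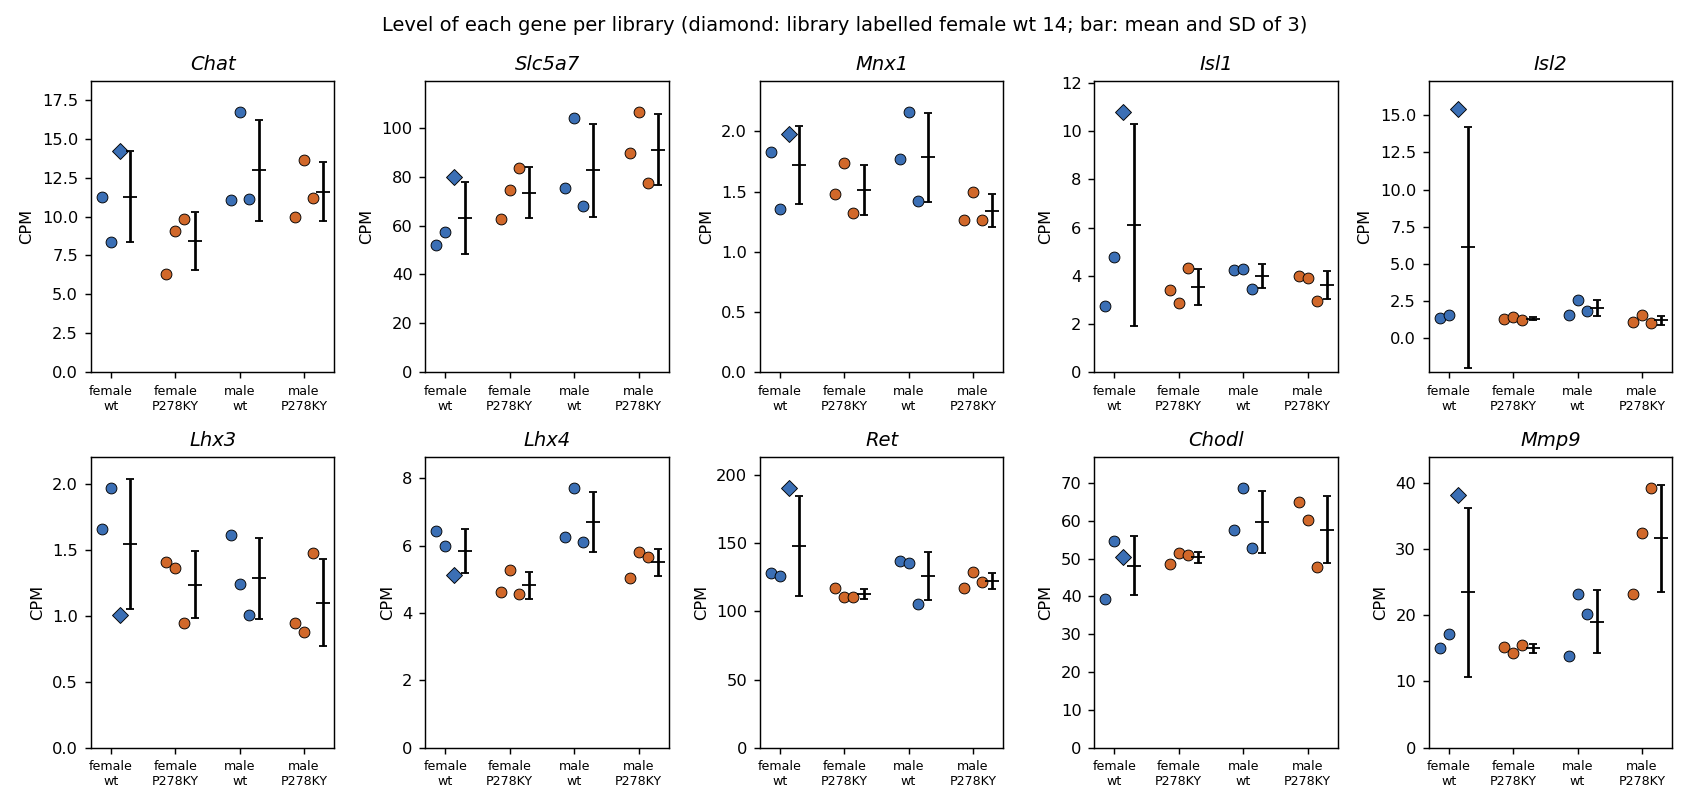
Level of each of the 10 genes in CPM (vertical axis, linear) in every library, by labelled sex and genotype; blue points are wt, orange points P278KY, the diamond is wt mouse 14, labelled female, and the bar is the mean and SD of 3 libraries. The diamond lies above all other libraries for Isl1, Isl2 and Ret and among them for Chodl, and it widens the SD of the female wt group, whose bar reaches below 0 for Isl2.

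None of the 10 genes passed the test for genotype. In edgeR's quasi-likelihood test with labelled sex as a term, 0 of 10 had an adjusted p under 0.05 (Benjamini-Hochberg over 17995 genes), against 0.00556% of all genes tested, which is 1 gene. DESeq2, which gave no p for Isl2, called 0 of the other 9. Unadjusted p was under 0.05 for 2 genes, Lhx4 and Isl2, both with lower fitted levels in P278KY, where the background was 1.69% of genes lower and 4.09% in either direction. Fitted levels were lower in P278KY for 7 of 10 genes, with 53.1% of all genes lower, and higher for Slc5a7, Mmp9 and Chodl. The median log2 fold change over the 10 genes was -0.28, and -0.15 without wt mouse 14; over all genes tested it was -0.01. Wt and P278KY libraries overlapped for all 10, where 0.122% of all genes had every P278KY library below every wt library. The genes were picked for their known roles, but with earlier results of these data known. No test was made over them as a group.

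**Figure D2:**
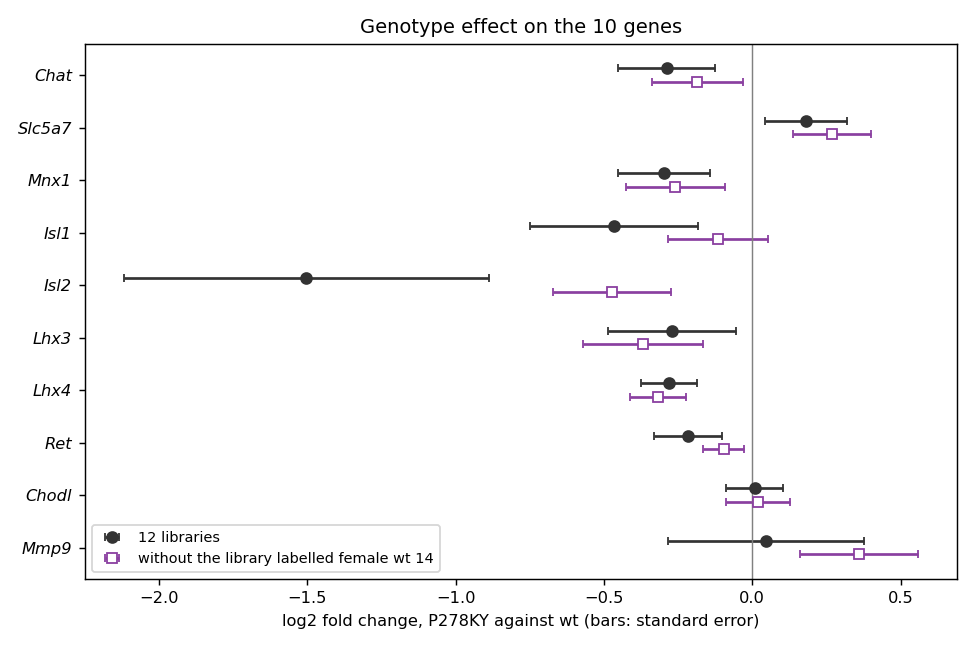
log2 fold change of P278KY against wt (horizontal axis) for the 10 genes with its standard error as bars, over 12 libraries (filled circles) and without wt mouse 14 (open squares). Lhx4 and Mnx1 stay at nearly the same place in both fits, and Isl2 goes from -1.50 to -0.47.

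The choline genes went opposite ways in fitted level. Chat, on the minus strand of chromosome 14 from 32408203 to 32465989 (GRCm38, GENCODE M21), had 11.3, 8.39 and 14.2 CPM in wt females and 11.1, 16.7 and 11.1 CPM in wt males. It had 6.34, 9.10 and 9.87 CPM in P278KY females and 9.96, 13.7 and 11.2 CPM in P278KY males. 5 of the 6 P278KY libraries lay below the wt median, and the lowest of all 12 was a P278KY library, but the groups overlapped. The log2 fold change was -0.29 ± 0.16 (edgeR, SE, adjusted p = 1.00), with a 95% interval from -0.64 to 0.07, and -0.18 ± 0.15 without wt mouse 14. The reads of Chat need care, since the gene's span also holds the vesicular acetylcholine transporter Slc18a3 on the same strand over 2413 bases, and Slc18a3 was not analysed here.

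Slc5a7 (chromosome 17, 54273590 to 54299034, minus strand) had 52.2, 57.3 and 80.0 CPM in wt females and 75.5, 104 and 68.2 CPM in wt males. In P278KY it had 62.6, 74.5 and 83.7 CPM in females and 89.7, 106 and 77.3 CPM in males. Levels overlapped widely, with 1 P278KY library above every wt library. Its fitted log2 fold change was 0.18 ± 0.14 (edgeR adjusted p = 1.00, 95% interval -0.12 to 0.48). So the precursor transporter and the enzyme that uses it had fitted differences of opposite sign, and neither passed the test.

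The other cholinergic genes measured here, which include the enzymes that split acetylcholine, its nicotinic and muscarinic receptors and choline carriers, gave no call. Of 19 tested, 6 had higher and 13 lower fitted levels in P278KY, none passed the edgeR threshold and none had an unadjusted p under 0.05. Their median log2 fold change was -0.04, against -0.01 over all genes. The smallest unadjusted p values belonged to the nicotinic receptor subunits Chrna7, at 10.8 ± 1.78 CPM in wt and 9.45 ± 1.16 CPM in P278KY (-0.19 ± 0.11), and Chrna3, at 12.8 ± 1.34 and 11.5 ± 1.37 CPM (-0.15 ± 0.10; SD, n = 6).

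The regions before the homeodomain genes other than Lhx3 are shown. All 5 homeodomain genes had lower fitted levels in P278KY, as did 53.1% of all genes. Without wt mouse 14 the log2 fold changes were -0.12 for Isl1, -0.47 for Isl2, -0.37 for Lhx3, -0.32 for Lhx4 and -0.26 for Mnx1. A link between these regions and the levels was not tested. The letters are the 250 bases before the RefSeq start (GRCm38.p6, 5′ to 3′ on the gene's strand) of the pair of Islet genes, of Lhx4 and of Mnx1; capitals mark matches to TGACGT on either strand, the core of the cyclic AMP response element.
Isl1, chr13:116309689-116309938, minus strand: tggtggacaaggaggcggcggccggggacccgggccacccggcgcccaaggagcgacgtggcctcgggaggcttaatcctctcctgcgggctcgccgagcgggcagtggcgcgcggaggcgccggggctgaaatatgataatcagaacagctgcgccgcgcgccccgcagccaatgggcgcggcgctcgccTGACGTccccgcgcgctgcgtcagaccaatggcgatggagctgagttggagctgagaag
Isl2, chr9:55540899-55541148, plus strand: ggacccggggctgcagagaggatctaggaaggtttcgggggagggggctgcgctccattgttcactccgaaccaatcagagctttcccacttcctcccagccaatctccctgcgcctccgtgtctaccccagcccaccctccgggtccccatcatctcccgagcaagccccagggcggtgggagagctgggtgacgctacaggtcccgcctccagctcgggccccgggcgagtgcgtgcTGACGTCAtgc
Lhx4, chr1:155742028-155742277, minus strand: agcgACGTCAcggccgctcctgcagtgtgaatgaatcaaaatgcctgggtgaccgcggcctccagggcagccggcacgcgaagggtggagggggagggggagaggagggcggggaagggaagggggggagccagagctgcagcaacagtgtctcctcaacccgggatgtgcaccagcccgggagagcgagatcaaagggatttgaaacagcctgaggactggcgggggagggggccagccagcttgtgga
Mnx1, chr5:29478471-29478720, minus strand: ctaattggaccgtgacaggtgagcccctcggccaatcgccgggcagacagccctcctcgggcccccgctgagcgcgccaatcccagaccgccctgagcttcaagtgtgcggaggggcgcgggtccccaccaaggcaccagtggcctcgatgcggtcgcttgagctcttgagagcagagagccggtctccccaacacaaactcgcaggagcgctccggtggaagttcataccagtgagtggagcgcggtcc
The match lay at -59 from the start in Isl1 and at -246 in Lhx4. In Isl2 it was a palindrome with overlapping matches on both strands at -11 and -9, and Mnx1 had none. Lhx3, which is not printed, had none before either of its starts. RefSeq's starts of Isl2 and Lhx4 lie inside the longer GENCODE spans of those genes.

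RefSeq windows of 300 bases (250 before to 50 after the start) were held for 8 of the 10 genes, in 9 windows since Lhx3 has 2 starts; for Ret and Mmp9 no window was used here. The windows of the homeodomain genes were rich in CpG: Isl1 had 69.0% GC and 37 CpG, Mnx1 66.3% and 26, Isl2 67.3% and 23, Lhx4 66.3% and 19, and the starts of Lhx3 71.0% and 28 and 61.0% and 13. The median of 32851 windows was 52.7% GC and 7 CpG. The other genes with a window had fewer CpG: Chat had 55.7% GC and 10 CpG, Chodl 52.7% and 6, and Slc5a7 44.7% and 1. The homeodomain core TAATTA was in 0 of 9 windows (5.29% of all windows), and TGATGNAA, the core of the ATF4 element, in 0 of 9 (3.97%). TGACGT was in 4 of 9, those of Chat, Isl1, Isl2 and Lhx4 (7.51% of all). That motif was searched after the windows had been read. It holds a CpG itself, and the share over all windows is not matched for CpG content. An excess over windows as rich in CpG was not tested. Both strands were searched, and a match is a description of letters, not a binding site.

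Lhx4 (chromosome 1, 155698031 to 155751684, minus strand) had the smallest p of the 10. It had 6.43, 6.0 and 5.14 CPM in wt females, 6.26, 7.72 and 6.11 CPM in wt males, 4.61, 5.29 and 4.56 CPM in P278KY females, and 5.04, 5.81 and 5.67 CPM in P278KY males. All 6 P278KY libraries lay below the wt median, and all 6 lay below 5 of the 6 wt libraries; the exception was wt mouse 14. Means were 6.28 ± 0.835 CPM over wt and 5.16 ± 0.524 CPM over P278KY libraries (SD, n = 6 each). The fitted difference on the log2 scale was -0.28 ± 0.09 (edgeR, unadjusted p = 0.0109, adjusted p = 1.00, 95% interval -0.49 to -0.08), which put Lhx4 at rank 147 of 17995. DESeq2 gave -0.28 ± 0.11 with an adjusted p of 0.579.

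Without wt mouse 14, Lhx4 was the only one of the 10 genes with all 6 P278KY libraries below all 5 wt libraries, which held for 0.131% of 18253 genes. On the log2 scale the difference was then -0.32 ± 0.09 (edgeR, unadjusted p = 0.00599, adjusted p = 0.970), and 1.34% of genes were lower with an unadjusted p under 0.05. Without both libraries whose sex marks went against their labels it was -0.35 ± 0.10 (edgeR, unadjusted p = 0.00450, adjusted p = 0.393). With those 2 left out, Lhx4 was again the only one of the 10 not to overlap, against 0.418% of 18168 genes, and Lhx4, Ret and Lhx3 had lower levels with an unadjusted p under 0.05, against 1.89%. Over the 12 libraries the size of the Lhx4 difference was the same in both labelled sexes, -0.28 ± 0.14 in each. Its unadjusted p was 0.0634 in females and 0.0619 in males (edgeR). The interaction was 0.00 ± 0.20 (edgeR adjusted p = 1.00).

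Isl2 (chromosome 9, 55538672 to 55546180, plus strand) had the largest fitted change, and it rested on 1 library. The wt libraries had 1.31, 1.53 and 15.5 CPM in females, the last in wt mouse 14, and 1.56, 2.58 and 1.82 CPM in males. The P278KY libraries had 1.27, 1.39 and 1.19 CPM in females and 1.07, 1.53 and 0.976 CPM in males. The log2 fold change was -1.50 ± 0.61 (edgeR, unadjusted p = 0.0328, adjusted p = 1.00) and -0.47 ± 0.20 without that library (unadjusted p = 0.0357, adjusted p = 1.00). The remaining 5 wt libraries had 1.76 ± 0.494 CPM and the 6 P278KY libraries 1.24 ± 0.205 CPM (SD), with 4 of the 6 below every wt library.

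Isl1 (chromosome 13, 116298281 to 116309689, minus strand) was raised in the same library. It had 2.74, 4.80 and 10.8 CPM in wt females and 4.24, 4.28 and 3.43 CPM in wt males, against 3.41, 2.85 and 4.31 CPM in P278KY females and 4.0, 3.91 and 2.96 CPM in P278KY males. Leaving out the 10.8 CPM library, the P278KY values sat inside the wt range. Its fitted log2 fold change was -0.47 ± 0.28 over 12 libraries and -0.12 ± 0.17 over 11 (edgeR adjusted p = 1.00 for both).

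Mnx1 (chromosome 5, 29473034 to 29478470, minus strand) was scarce. It had 1.83, 1.35 and 1.98 CPM in wt females, 1.77, 2.16 and 1.42 CPM in wt males, 1.48, 1.73 and 1.32 CPM in P278KY females and 1.26, 1.5 and 1.26 CPM in P278KY males. All 6 P278KY libraries were below the wt median and 3 were below the lowest wt library. The fitted difference on the log2 scale was -0.30 ± 0.15 (edgeR, unadjusted p = 0.0778, adjusted p = 1.00), and -0.26 ± 0.17 without wt mouse 14.

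Lhx3 (chromosome 2, 26200212 to 26208289, minus strand) had 1.66, 1.97 and 1.00 CPM in wt females and 1.61, 1.24 and 1.00 CPM in wt males. It had 1.41, 1.36 and 0.943 CPM in P278KY females and 0.945, 0.876 and 1.48 CPM in P278KY males. The groups overlapped, and the log2 fold change was -0.27 ± 0.21 (edgeR adjusted p = 1.00).

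Lhx3 levels followed a gene of the caudal cord. Hoxc12, a Hox gene of the sacral cord and tail, was above 1 CPM in 6 libraries, 3 wt and 3 P278KY, and at most 0.0629 CPM in the other 6. Lhx3 had 1.36 to 1.97 CPM in the former and 0.876 to 1.24 CPM in the latter. Among libraries with Hoxc12, wt had 1.61 to 1.97 CPM of Lhx3 and P278KY 1.36 to 1.48 CPM; among those without, wt had 1.00 to 1.24 CPM and P278KY 0.876 to 0.945 CPM. This split was made after the values were seen, with 3 libraries in each cell, so it is a description with no test. The share of all genes whose genotypes separate under this split was not counted. With the mean log2 CPM of Hoxc12 and Hoxc13 as a term, the log2 fold change of Lhx3 was -0.16 ± 0.13 (edgeR adjusted p = 0.903). Hoxc12 is among the 3 genes whose levels were most like those of Lhx3 over these libraries, and the term was chosen with that known, so this value is no independent test. Lhx4 was -0.27 ± 0.10 with the same term and -0.28 ± 0.09 without it. Over the 9 rostrocaudal Hox genes 4 had higher and 5 lower fitted levels, none past the edgeR threshold, with a median of -0.26; Hoxc9 was 0.18 ± 0.08 and Hoxc8 0.37 ± 0.37.

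**Figure D3:**
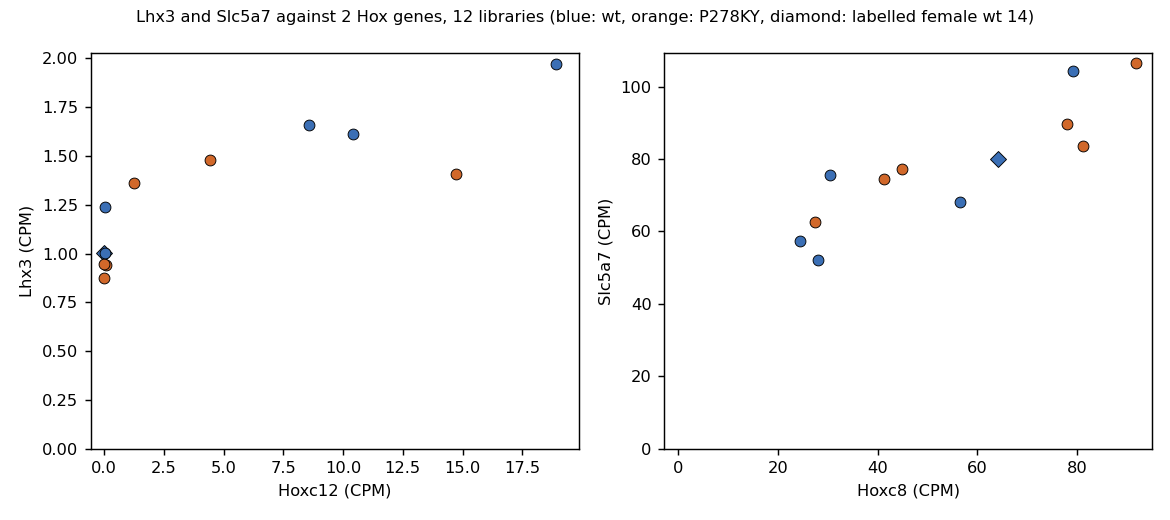
Lhx3 against Hoxc12 (left) and Slc5a7 against Hoxc8 (right), both axes in CPM on linear scales, 1 point per library; blue is wt, orange P278KY, the diamond wt mouse 14. Lhx3 is at least 1.36 CPM in each of the 6 libraries with Hoxc12 above 1 CPM and at most 1.24 CPM in the rest, and Slc5a7 is highest where Hoxc8 is high.

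The partners that specify motor neurons were split in direction. Of 15 tested, among them the progenitor factors Olig2 and Neurog2, the adaptor Ldb1 and the limb column factor Foxp1, 9 had higher and 6 lower fitted levels, none passed the edgeR threshold and none had an unadjusted p under 0.05. The median was 0.01. The smallest p values belonged to Nkx6-1, a ventral progenitor factor (0.19 ± 0.11), and Lmo4, a LIM-only protein that competes for Ldb1 (-0.07 ± 0.04). Of 8 genes of interneurons and dorsal neurons that share these factors, 4 were higher and 4 lower. None passed the edgeR threshold, and 1 was higher with an unadjusted p under 0.05. Prrxl1, a factor of dorsal horn and sensory neurons, was -0.13 ± 0.16.

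Ret (chromosome 6, 118151745 to 118197718, minus strand) was the most counted of the 10. It had 128, 126 and 190 CPM in wt females and 137, 135 and 106 CPM in wt males, against 117, 111 and 111 CPM in P278KY females and 117, 129 and 121 CPM in P278KY males. All 6 P278KY libraries lay below the wt median but none below the lowest wt library, which is the one labelled male wt 19. On the log2 scale the difference was -0.22 ± 0.11 (edgeR, unadjusted p = 0.0804, adjusted p = 1.00). It was -0.10 ± 0.07 without wt mouse 14 (edgeR, unadjusted p = 0.190). Without both libraries whose sex marks went against their labels it was -0.16 ± 0.04 (edgeR, unadjusted p = 0.00323, adjusted p = 0.379). Those libraries hold the highest and the lowest wt levels of Ret, and wt and P278KY still overlapped without them.

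The ligands and co-receptors that act with Ret gave no joint direction: of 7 tested of 8, 3 were higher and 4 lower, with a median of -0.03 and none past the edgeR threshold. Nrtn, a ligand, had 0.579 ± 0.176 CPM in wt and 0.770 ± 0.222 CPM in P278KY (0.39 ± 0.27). Gfra3, the co-receptor of sensory neurons, was -0.95 ± 0.65, with 5.21 CPM in wt mouse 14 and at most 0.836 CPM in the other 11.

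Sensory ganglion genes were highest in wt mouse 14, the library that was also highest in Isl1, Isl2 and Ret. All 9 of the tested sensory ganglion genes had lower fitted levels in P278KY, with a median of -1.95. Unadjusted p was under 0.05 for 2 of them, and none passed the edgeR threshold. The sum of the list ranged from 15.8 to 318 CPM in wt, and from 15.8 to 23.3 CPM without wt mouse 14; in P278KY it ranged from 12.6 to 21.4 CPM. Its defining sodium channel Scn10a had 96.9 CPM in that library and at most 2.43 CPM in the others, and its transcription factor Prdm12 8.66 CPM against at most 0.373 CPM. Relative to the median of the other 11 libraries, that library held 11.1 times as much Isl2, 2.76 times Isl1, 2.23 times Mmp9 and 1.57 times Ret, and 1.34 times Mnx1, 1.28 times Chat, 1.06 times Slc5a7, 0.958 times Chodl, 0.886 times Lhx4 and 0.737 times Lhx3. With the mean log2 CPM of the sensory ganglion genes as a term, the log2 fold change was 0.01 ± 0.20 for Isl1, -0.19 ± 0.22 for Isl2 and -0.07 ± 0.09 for Ret, and -0.34 ± 0.10 for Lhx4 (edgeR, unadjusted p = 0.00590, adjusted p = 0.731). In that fit Mmp9 was 0.50 ± 0.22 (unadjusted p = 0.0447, edgeR adjusted p = 1.00). Lhx4 was the only 1 of the 10 lower with an unadjusted p under 0.05 there, against 1.59% of all genes. Of the sympathetic neuron genes, Dbh was at most 0.314 CPM in any library; Th (-0.23 ± 0.14) and Phox2a (-0.21 ± 0.21) were low in both genotypes.

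**Figure D4:**
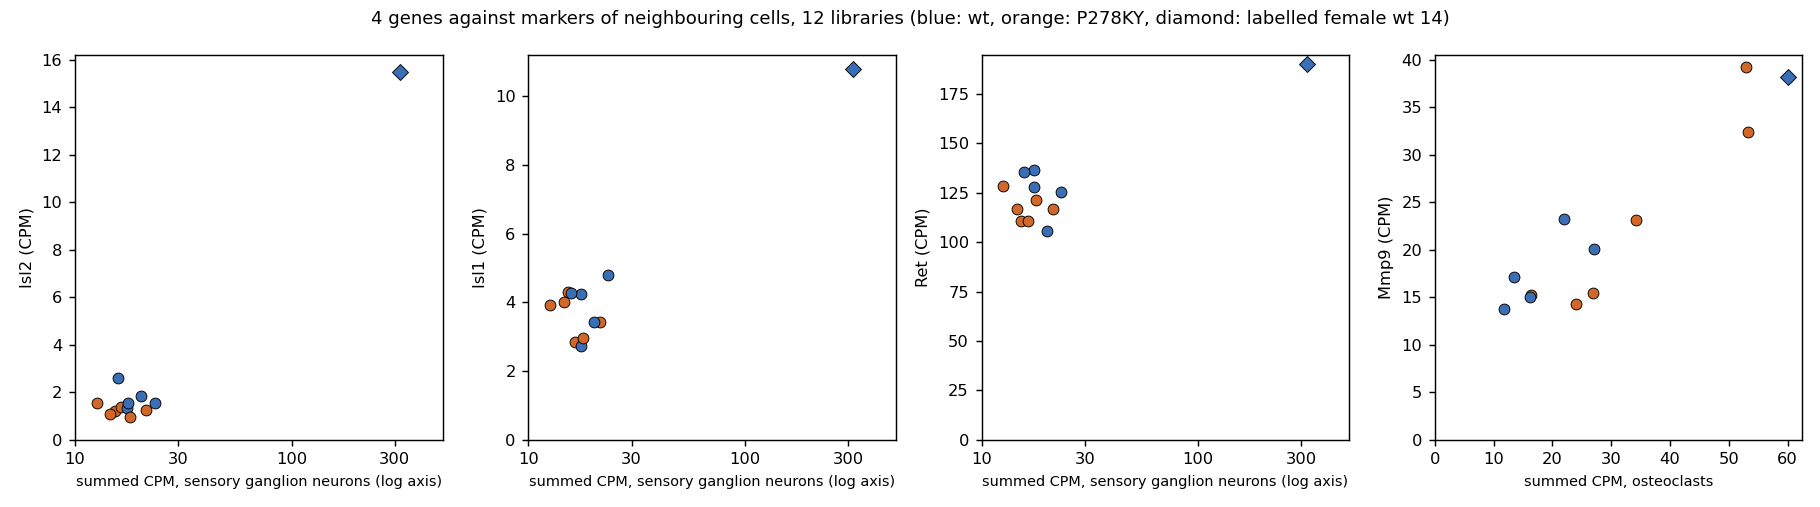
Isl2, Isl1 and Ret (CPM, linear) against the summed CPM of the sensory ganglion genes (log axis), and Mmp9 (CPM) against the summed CPM of the osteoclast genes (linear), 1 point per library; blue is wt, orange P278KY, the diamond wt mouse 14. Wt mouse 14, at 318 CPM, holds the highest Isl2, Isl1 and Ret, and the 3 libraries with the highest osteoclast sums have the 3 highest Mmp9 levels.

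Chodl (chromosome 16, 78930948 to 78951733, plus strand), a lectin-like membrane protein of fast motor neurons, was the closest to no difference. It had 39.4, 54.6 and 50.5 CPM in wt females and 57.6, 68.7 and 52.7 CPM in wt males, against 48.7, 51.5 and 50.9 CPM in P278KY females and 64.9, 60.3 and 47.8 CPM in P278KY males. The means were 53.9 ± 9.55 and 54.0 ± 6.93 CPM (SD, n = 6 each). The log2 fold change was 0.01 ± 0.10 (edgeR adjusted p = 1.00), and its 95% interval ran from -0.20 to 0.22.

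Mmp9 (chromosome 2, 164940780 to 164955850, plus strand), a secreted protease, differed widely between mice of the same group. It had 15.1, 17.2 and 38.2 CPM in wt females, 13.8, 23.2 and 20.1 CPM in wt males, 15.2, 14.3 and 15.5 CPM in P278KY females, and 23.1, 32.4 and 39.2 CPM in P278KY males. The libraries labelled female P278KY were close together and low, and 2 of the libraries labelled male P278KY were above every male wt library. Its fitted log2 fold change was 0.05 ± 0.33 (edgeR adjusted p = 1.00) and 0.36 ± 0.20 without wt mouse 14.

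Osteoclast genes moved with Mmp9. The sum of 7 osteoclast genes was 60.1 CPM in wt mouse 14, 53.2, 53.0 and 34.2 CPM in male P278KY 5, 13 and 3, and 11.8 to 27.0 CPM in the other 8. All 6 that were tested had higher fitted levels in P278KY, with a median of 0.26 and none past the edgeR threshold; Ctsk, the osteoclast collagenase, was 0.40 ± 0.47 and Atp6v0d2 0.50 ± 0.65. With the mean log2 CPM of these genes as a term Mmp9 was -0.27 ± 0.12 (edgeR, unadjusted p = 0.0530, adjusted p = 0.490), a change of sign. In the same fit 5 of the 10 were lower with an unadjusted p under 0.05, against 4.53% of all genes: Isl2 (-1.70 ± 0.35), Ret (-0.31 ± 0.10), Chat (-0.43 ± 0.14), Isl1 (-0.62 ± 0.24) and Lhx4 (-0.27 ± 0.10). Their edgeR adjusted p ranged from 0.160 to 0.420. Wt mouse 14, which has the highest osteoclast sum and the highest Isl2, Isl1 and Ret, is part of that fit, and its share in this count was not tested. Without that library and without the term, Isl2 was -0.47 ± 0.20, Ret -0.10 ± 0.07, Chat -0.18 ± 0.15, Isl1 -0.12 ± 0.17 and Lhx4 -0.32 ± 0.09. Neutrophil genes, also a source of Mmp9, summed to 25.6 to 195 CPM in wt and 23.0 to 129 CPM in P278KY, with 2 of 8 higher and 6 lower; Lcn2 was -0.28 ± 0.47 and Elane 0.20 ± 0.38.

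The genes of motor neuron subtypes did not follow one direction. Of 16 tested, 7 were higher and 9 lower, the median was -0.01 and none passed the edgeR threshold, while 2 were lower with an unadjusted p under 0.05. Uts2b, a urotensin-related peptide gene, had 4.75 ± 0.897 CPM in wt and 3.45 ± 0.734 CPM in P278KY (-0.46 ± 0.17, edgeR, unadjusted p = 0.0169, adjusted p = 1.00). Ahnak2 was -0.88 ± 0.31 (unadjusted p = 0.0169), with 192 CPM in wt mouse 14 and at most 73.3 CPM in the others.

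Skeletal muscle genes had larger fitted differences than the 10. All 8 had higher fitted levels in P278KY, 4 with an unadjusted p under 0.05, and the median was 2.76; none passed the edgeR threshold. Their sum ran from 7.18 to 916 CPM in wt and from 57.1 to 2358 CPM in P278KY; Myh3 was 2.43 ± 0.89 and Acta1 3.12 ± 1.33. Of 4 endplate genes 3 were higher, 2 of them with an unadjusted p under 0.05. These were Chrnb1, by 0.62 ± 0.25, and Chrna1, by 0.60 ± 0.25 on the log2 scale (edgeR adjusted p = 1.00 for both). With the mean log2 CPM of the muscle genes as a term, Lhx3 was -0.07 ± 0.32 and Slc5a7 0.34 ± 0.19. Lhx4 was -0.26 ± 0.14 in that fit (edgeR, unadjusted p = 0.0893). The spinal cord cell genes were split 5 higher and 5 lower, with Aqp4 at 0.13 ± 0.10 and Cx3cr1 at 0.08 ± 0.10, and the 2 tested forebrain genes Tbr1 and Neurod6 were 0.44 ± 0.39 and 0.10 ± 0.11. How far nearby tissue contributes to the differences in the 10 genes was not tested beyond these terms.

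Within the labelled sexes, 0 of the 10 passed the edgeR threshold in females, males or the interaction, and 0% of all genes did in each of the 3; DESeq2 also called none of the 10 in any of them. Fitted levels were lower for 8 of 10 in each sex, and the share of all genes lower was not computed within sex. The median log2 fold change over all genes was -0.008 in females and -0.002 in males. In females 2 of 10 had an unadjusted p under 0.05, with a background of 10.7%: Isl2 at -2.24 ± 0.82 and Ret at -0.39 ± 0.15 (edgeR adjusted p = 0.381 and 0.388), both in the contrast that holds wt mouse 14. Without it they were -0.14 ± 0.28 and -0.16 ± 0.10 (edgeR adjusted p = 0.867 and 0.565). Lhx4 in females was then -0.36 ± 0.14 (edgeR, unadjusted p = 0.0292, adjusted p = 0.452). In males 0 of 10 did over the 12 libraries, with a background of 4.91%. Mnx1 was -0.41 ± 0.22 and Isl2 -0.73 ± 0.81. Without wt mouse 14, male Isl2 was -0.73 ± 0.25 (edgeR, unadjusted p = 0.0136, adjusted p = 0.847). Male Mmp9 was then 0.73 ± 0.21 (edgeR, unadjusted p = 0.00595, adjusted p = 0.770). The groups share an estimate of the spread, so a female library enters the male errors. For the fit within sex without wt mouse 14, the share of all genes with an unadjusted p under 0.05 is not given. Its female contrast holds only wt mice 1 and 2. In the interaction 1 of 10 did, with a background of 10.9%: Mmp9, at -0.64 ± 0.35 in females and 0.73 ± 0.35 in males, a difference of -1.38 ± 0.49 (edgeR, unadjusted p = 0.0195, adjusted p = 0.361). Without wt mouse 14, which has the highest wt level of Mmp9, the female value was -0.10 ± 0.23 and the difference -0.83 ± 0.31 (edgeR, unadjusted p = 0.0245, adjusted p = 0.339). The sex marks of 2 wt libraries go against their labels, so these are contrasts of labels.

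Across the 12 libraries the 10 genes did not rise and fall as a block. Over their 45 pairs Pearson's r of log2 CPM ran from -0.69 to 0.88, with a median of 0.24, and without wt mouse 14 from -0.70 to 0.78, with a median of 0.29. These are descriptions over libraries that share depth scaling and groups. Isl1 and Isl2 had r of 0.88 with that library and 0.35 without it. Slc5a7 and Chodl had 0.76 and 0.78, and Slc5a7 and Lhx3 -0.69 and -0.70. Without that library, Lhx4 had 0.74 with Chat, 0.74 with Isl2 and 0.68 with Mnx1.

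The genes most like each of the 10, by r of log2 CPM among all 17995 genes and with predicted genes passed over, were as follows over the 12 libraries. Chat had Ttc1 (0.94), Tsr3 and Acly, the enzyme that makes cytosolic acetyl-CoA (0.91). Slc5a7 had Brdt (0.88), Gfi1 and Hoxc8 (0.87). Mnx1 had the growth factor gene Nrg1 (0.87), Pigz and Fam173b. Isl1 had the neuronal intermediate filament gene Prph (0.94), Ppp1r1c and Rab3d, and Isl2 had Ppp1r1c (0.97), Myo1a and Pirt. Lhx3 had Pou2f2 (0.96), Pnoc and Hoxc12 (0.92), and Lhx4 had Nphp4 (0.86), Nudt18 and Slc30a9. Ret had Fkbp1b (0.96), Lrsam1 and Kcnd1, Chodl had Rhot2 (0.88), Ppig and Gtf2a2, and Mmp9 had Spp1 (0.92), Clta and Loxl4.

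These lists changed when wt mouse 14 was left out. Of the 3 genes named for each, 3 stayed for Chodl, 2 for Chat (Ttc1 and Acly) and Lhx3 (Pou2f2 and Pnoc), 1 each for Slc5a7 (Brdt), Lhx4 (Nphp4), Ret (Fkbp1b) and Mmp9 (Spp1), and 0 for Mnx1, Isl1 and Isl2. The genes that led over the 11 libraries were Rpl3-ps1 for Mnx1 (0.90), Rnf149 for Isl1 (0.90), Dhrs7b for Isl2 (0.90), Polr2j for Lhx4 (0.86), Bmper for Ret (0.90) and Sstr3 for Mmp9 (0.95). Each is the highest value over all the other genes tested, so its size says little by itself.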

How the data were processed

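RNA was poly(A)-selected and sequenced in 75-base pairs, per the labels' protocols. The deposited tables hold, per gene, the authors' RSEM expected counts and TPM values; per the submitters' processing notes the tools included RSEM 1.2.12 and Bowtie2 2.2.0, and neither the genome build nor the strand setting is stated in the labels. Expected counts were rounded and tested with edgeR 4.0.16 (R 4.3.3): filterByExpr over the 4 groups, TMM factors, robust quasi-likelihood fits, and Benjamini-Hochberg adjustment over all 17995 genes kept, threshold 0.05. Genotype was fitted with labelled sex over 12 libraries; contrasts within sex came from 4 group means. CPM are on TMM-adjusted totals, and TPM was used to order levels between genes. The labels do not say that libraries of a group share a litter or day. DESeq2 1.42.0, limma 3.58.1 (voom, and log2(TPM + 1) or log2(TPM + 0.1)), other filters and scalings, the mean log2 CPM of marker lists as terms and left-out libraries were the alternatives. The code was tested on simulated data with known changes. All 10 genes are named, and of each companion list up to 4 genes past the threshold or else the 2 with the smallest p; likeness lists name the 3 highest r. Other names are for markers chosen after their values were seen. The 10 genes and the 14 companion lists were chosen with earlier results of these data known; 135 of 136 companion symbols were found. Some genes that the naming rule picks are not reported here. The sacral Hox term and the TGACGT search were chosen after seeing the data. Positions are from GENCODE M21 and promoter sequences from RefSeq (GRCm38.p6).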

Additional observations from a re-analysis of the deposited data

Results flagged for a closer look

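3 of the 20 sets of 6 libraries (10 genes in each genotype) had a library standing apart from the rest by Dixon's criterion, where chance gives about 5%. In each of the 3 it was the library labelled female wt 14. Isl2 had 15.5 CPM there, with the next wt library at 2.58 CPM. Isl1 had 10.8 CPM, with the next at 4.80 CPM. Ret had 190 CPM, with the next at 137 CPM. The sensory ganglion genes of the same library summed to 318 CPM, and at most 23.3 CPM in the others; their part in these levels was not tested beyond the fit with their mean log2 CPM as a term.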

How the results depend on the processing

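None of the 10 genes was called in any of 26 alternatives for genotype, Isl2 having no p from DESeq2, and 242 of 260 values kept their sign. The smallest adjusted p was 0.160, for Isl2 with the osteoclast term (edgeR). The median of the 10 ranged from -0.33 to -0.11. Chat, Slc5a7, Mnx1, Isl2, Lhx3, Lhx4 and Ret kept their sign throughout, Lhx4 between -0.35 and -0.22. The sign changes were these, and the cause was not tested. Chodl was -0.0068 with library totals, -0.0278 on log2(TPM + 1), -0.0283 on log2(TPM + 0.1), -0.0128 with the sacral Hox term, -0.0163 without both libraries of discordant sex marks, and -0.0545 to 0.0662 on leaving out 1 library. Isl1 was 0.0093 with the sensory ganglion term. Mmp9 was -0.27 with the osteoclast term and -0.13 to 0.36 on leaving out 1 library. Over all genes, the genotype calls (1 in the reported fit) were 33 by DESeq2, 0 with CPM above 1 in 6 libraries, 2 without the sex term, 2 with the sensory ganglion term, 2 with the osteoclast term, 3 with the sacral Hox term, 0 without both discordant libraries, and 1 to 3 on leaving out 1 (3 without female wt 2, 2 without female P278KY 10). Calls in females (0) were 11 without both, 289 by DESeq2, 9 with the sensory ganglion term and 0 to 9 on leaving out 1 (9 without female wt 14); in males (0) 4, 34, 6 and 0 to 4; in the interaction (0) 5, 279, 2 and 0 to 3. None of these were among the 10. The number of the 10 lower with an unadjusted p under 0.05, 2 as reported, was 3 without female wt 1, female wt 2 or male wt 19 (1.76%, 2.18% and 1.75% of all genes) and 1 without female P278KY 4, female P278KY 10 or male wt 9 (1.43%, 1.71% and 1.78%). No paired analysis was possible because the groups share no mouse numbers. Scaling moved the median of all genes by less than 0.1. The standard errors were largest for Isl2 (0.61), Mmp9 (0.33) and Isl1 (0.28), genes in which wt mouse 14, the library labelled female wt 14, was high.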
